A study of Homo sapiens with 6 samples.

Results

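The acrocentric chromosomes 13, 14, 15, 21 and 22 carry their centromere close to 1 end, and the peaks of nascent DNA in their short arms and centromeres are described here. Members were all consensus peaks, of either genotype, with a midpoint between the chromosome start and 19 Mb on chromosome 13, 18.7 Mb on chromosome 14, 20.5 Mb on chromosome 15, 13 Mb on chromosome 21 and 17.4 Mb on chromosome 22 of the human genome build hg38. This gave 366 of the 18840 consensus peaks, with 169 of 10285 in the control list and 197 of 8555 in the ERCC6L2-/- list. The rule used position only. Beyond the main centromeric array of each chromosome lay 33 control and 31 ERCC6L2-/- members, at the start of the long arm, of which 13 and 12 were on chromosome 15. The 5 intervals held 21.3 Mb of known bases, which begin at position 16000001 on chromosomes 13 and 14 and at 17000001 on chromosome 15. On the short-arm side of the main array lay 55 control and 53 ERCC6L2-/- members on chromosome 21 and 27 and 30 on chromosome 22. Chromosome 14 had 5 in each list there, and chromosomes 13 and 15 had none.

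U2OS, a human osteosarcoma cell line, was compared with and without ERCC6L2, a SNF2-family ATPase. There were 3 control samples, labelled WT, and 3 ERCC6L2-/- samples, all given BrdU, which cells take up into DNA in place of thymidine, as a pulse of 2 h before the labelled DNA was immunoprecipitated and sequenced. Knockout lines of the study were grown from single edited cells, and which of them was sequenced is not given in the sources used here. The authors merged the peaks of 3 replicates into 1 consensus list per genotype, so there was no spread between replicates, the read depth was unknown, and no test between genotypes could be made. Shares are therefore given with 95% Wilson intervals, which cover counting error only. A member was called shared if it had at least 1 base in common with a peak of the other list, and list-specific otherwise. Scores are the deposited −log10 p-values of the merged peaks, and values above 310.6 were written as infinite, called here the ceiling.

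Acrocentric short arms carry the ribosomal DNA (rDNA), tandem units that encode the 18S, 5.8S and 28S ribosomal RNAs and form the nucleoli, between large blocks of satellite repeats. Centromeres are built on alpha-satellite, tandem monomers that are alike in length, and in some monomers lies the CENP-B box, the site bound by the centromere protein CENP-B. Human satellites of another family are tandem copies of diverged GGAAT pentamers and make up much of the heterochromatin of these arms. The acrocentric arms exchange sequence with each other, so many of their repeats occur in near-identical form on several of the 5 chromosomes.

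The members fell into a few kinds of sequence, of which the letters are shown first. In the longest gap-free stretch of these intervals, chr13:16282174-17416384, the bases were most alike at a distance of 171 bases, the alpha-satellite monomer, with 61.9% identity. For alpha-satellite, 171 bases centred on a CENP-B box are given for the member with the most boxes on each chromosome, to show the site that most alpha-satellite peaks held. The capitals mark the match to the core CENP-B box. The chromosome 13 stretch is from a shared control peak with 8 boxes, and the others are from ERCC6L2-/- peaks with 9, 6, 8 and 8 boxes, each with its boxes on 1 strand only.
alpha-satellite, chr13:17548034-17548204, plus strand: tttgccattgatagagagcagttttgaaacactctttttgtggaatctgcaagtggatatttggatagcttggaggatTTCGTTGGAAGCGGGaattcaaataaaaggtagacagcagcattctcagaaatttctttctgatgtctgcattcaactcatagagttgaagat
alpha-satellite, chr14:17498639-17498809, plus strand: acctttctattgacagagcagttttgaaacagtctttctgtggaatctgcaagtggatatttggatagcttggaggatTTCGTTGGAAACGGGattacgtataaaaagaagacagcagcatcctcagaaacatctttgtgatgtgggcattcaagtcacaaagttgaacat
alpha-satellite, chr15:19672142-19672312, plus strand: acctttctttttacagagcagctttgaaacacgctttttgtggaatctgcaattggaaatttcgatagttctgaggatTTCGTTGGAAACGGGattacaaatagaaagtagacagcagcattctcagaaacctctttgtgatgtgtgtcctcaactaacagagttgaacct
alpha-satellite, chr21:12241262-12241432, plus strand: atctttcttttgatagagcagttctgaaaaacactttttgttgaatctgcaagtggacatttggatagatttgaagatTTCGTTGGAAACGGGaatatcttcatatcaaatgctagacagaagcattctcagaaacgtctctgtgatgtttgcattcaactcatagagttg
alpha-satellite, chr22:14307461-14307631, plus strand: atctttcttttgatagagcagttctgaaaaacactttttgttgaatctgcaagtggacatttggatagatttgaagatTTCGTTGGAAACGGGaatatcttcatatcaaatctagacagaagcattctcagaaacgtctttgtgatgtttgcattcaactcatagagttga
The chromosome 21 and chromosome 22 stretches differed by 3 single-base edits, while the other pairs differed by 26 to 37 edits. The stretches shown are thus mostly different monomers of the repeat. Of the 3 edits, 1 came from the fixed length, which ends the chromosome 22 stretch 1 base further along the repeat. The stretches from chromosomes 13, 14, 21 and 22 lie in the block described below, which is identical on these chromosomes. Each of them therefore occurs unchanged on all of these chromosomes, and their edits are not differences between the chromosomes.

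The tandem repeats that gave the widest peaks are shown next. In the first, 5 copies of the pentamer GGAAT are in capitals, in the middle of the widest control peak. In the second, the capitals mark 1 unit of 49 bases between its neighbours, and in the third every second unit of 26 bases is in capitals. All 3 lie in peaks found in both lists.
GGAAT satellite, chr21:10703410-10703559, minus strand: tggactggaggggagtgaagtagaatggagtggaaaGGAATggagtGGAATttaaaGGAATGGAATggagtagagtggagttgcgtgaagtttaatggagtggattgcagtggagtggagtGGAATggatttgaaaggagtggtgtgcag
49-base repeat, chr22:16372427-16372573, plus strand: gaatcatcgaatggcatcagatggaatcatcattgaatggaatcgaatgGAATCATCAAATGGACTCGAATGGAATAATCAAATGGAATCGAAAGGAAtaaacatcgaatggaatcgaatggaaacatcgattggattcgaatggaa
26-base repeat, chr22:16565464-16565619, plus strand: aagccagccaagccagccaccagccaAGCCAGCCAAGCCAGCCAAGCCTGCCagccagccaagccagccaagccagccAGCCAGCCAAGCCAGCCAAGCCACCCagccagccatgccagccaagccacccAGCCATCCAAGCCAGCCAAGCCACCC
From the rDNA, a pyrimidine tract of 43 bases (in capitals) is shown because its kind recurred in the spacer peaks, followed by the middle of the GC-rich peak that was specific to ERCC6L2-/-, with its 27 CG pairs in capitals.
rDNA spacer tract, chr21:8230400-8230482, plus strand: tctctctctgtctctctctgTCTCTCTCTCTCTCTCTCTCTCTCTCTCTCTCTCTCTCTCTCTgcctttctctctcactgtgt
rDNA GC-rich peak, chr21:8208585-8208734, plus strand: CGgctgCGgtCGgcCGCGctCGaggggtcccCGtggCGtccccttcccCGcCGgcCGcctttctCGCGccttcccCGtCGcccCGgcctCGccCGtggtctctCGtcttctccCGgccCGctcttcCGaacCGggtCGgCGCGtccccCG

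Alpha-satellite held most of the members specific to ERCC6L2-/-. The control list had 31 list-specific members of 169 (18.3%, interval 13.2 to 24.9%), beside 32.8% list-specific among all its peaks. The ERCC6L2-/- list had 56 of 197 (28.4%, 22.6 to 35.1%), beside 18.9% among all its peaks. With the members left out, the shares were 33.0% of 10116 control and 18.6% of 8358 ERCC6L2-/- peaks. The control share of the members lay below that value and the ERCC6L2-/- share above it, but with the 4 identical copies described below counted as 1 place the ERCC6L2-/- share was 21.4% (15.7 to 28.4%), an interval that holds the value outside the members. Alpha-satellite made up 46 of these 56 ERCC6L2-/- peaks (82.1%, 70.2 to 90%) and 14 of the 31 control peaks (45.2%, 29.2 to 62.2%). Among all members it made up 85 of 197 ERCC6L2-/- peaks (43.1%) and 53 of 169 control peaks (31.4%). The intervals were drawn to hold centromeres. Of the list-specific peaks outside the members, 456 of 1558 in ERCC6L2-/- and 96 of 3340 in the control were alpha-satellite. Both shares of the list-specific members fell under 2 stricter settings. With identical copies counted as 1 place, alpha-satellite made up 70.6% (24 of 34) of the list-specific places in ERCC6L2-/- and 22.7% (5 of 22) in the control. Among list-specific peaks at the ceiling, the values were 68.8% (11 of 16) and 20% (2 of 10). Outside alpha-satellite, 17 of 116 control members (14.7%, 9.4 to 22.2%) and 10 of 112 ERCC6L2-/- members (8.9%, 4.9 to 15.7%) were list-specific.

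**Figure D1:**
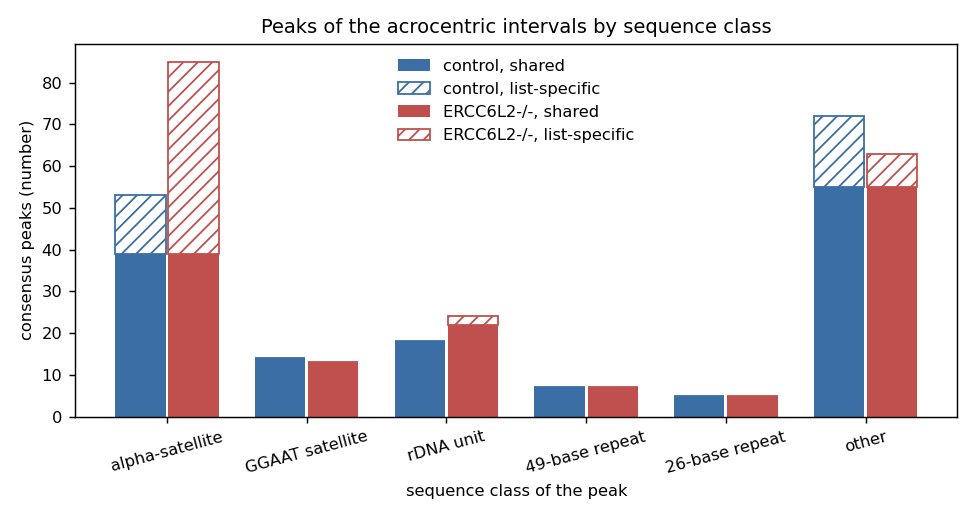
Number of consensus peaks of the acrocentric intervals (y axis) by sequence class (x axis), control in blue and ERCC6L2-/- in red, with shared peaks filled and list-specific peaks hatched. Alpha-satellite held 53 control and 85 ERCC6L2-/- peaks with 39 shared in each list, and the GGAAT, 49-base and 26-base repeats held no list-specific peak.

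The classes differed in how far the lists covered the same bases. In the GGAAT satellite, 99.5% of the control bases and 98.2% of the ERCC6L2-/- bases under peaks were under peaks of both lists. In the rDNA the values were 82.7% and 87.4%. In the members of no named class they were 70.9% and 79.8%. In alpha-satellite, with the 4 identical copies described below kept apart, they were 69.6% of 99.1 kb for the control and 47.1% of 146.6 kb for ERCC6L2-/-. The control value was thus close in these last classes. The ERCC6L2-/- list covered more alpha-satellite and nearly equal lengths of GGAAT satellite, 175.0 kb in the control and 177.3 kb in the ERCC6L2-/- list.

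By listed position, each of the 5 chromosomes had more alpha-satellite peaks in the ERCC6L2-/- list than in the control list. Chromosome 13 had 12 in the control (3 list-specific) and 20 in the ERCC6L2-/- list (11 list-specific). Chromosome 14 had 6 (1) and 17 (12). Chromosome 15 had 5 (2) and 11 (8). On chromosome 21, 17 control peaks (2 list-specific) stood beside 21 ERCC6L2-/- peaks (6 list-specific). On chromosome 22 there were 13 control peaks (6) and 16 ERCC6L2-/- peaks (9). The excess was smallest on chromosome 22, the chromosome with the most control-specific alpha-satellite peaks. These chromosomes share sequence, as described below, so their counts are not independent.

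**Figure D2:**
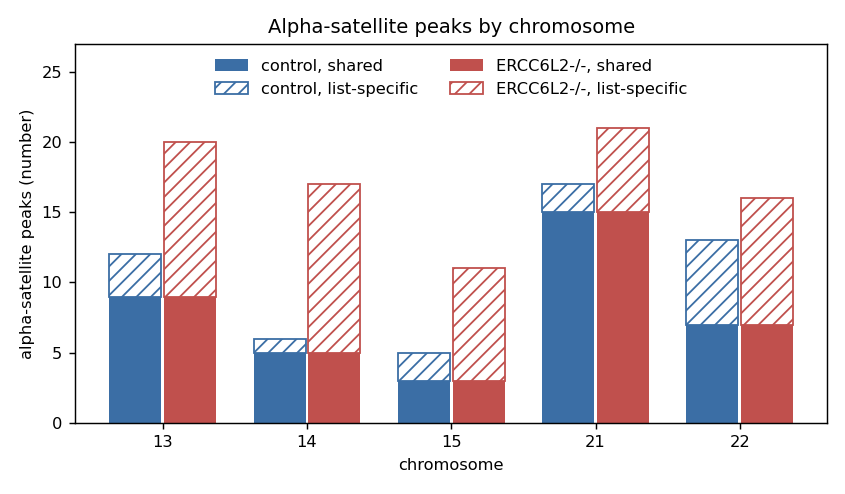
Number of alpha-satellite peaks (y axis) on each acrocentric chromosome (x axis), control in blue and ERCC6L2-/- in red, with list-specific peaks hatched. List-specific ERCC6L2-/- peaks numbered 11, 12, 8, 6 and 9 on chromosomes 13, 14, 15, 21 and 22, against 3, 1, 2, 2 and 6 in the control.

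Of the alpha-satellite members, 14 of 53 in the control (26.4%, 16.4 to 39.6%) and 46 of 85 in the ERCC6L2-/- list (54.1%, 43.6 to 64.3%) were list-specific. Alpha-satellite peaks on the other chromosomes gave 96 of 595 (16.1%, 13.4 to 19.3%) and 456 of 956 (47.7%, 44.5 to 50.9%). The intervals of the acrocentric and the other centromeres overlapped in both lists. Of the list-specific members, 12 control and 35 ERCC6L2-/- peaks lay on the 4 identical copies described below, which were counted separately here. The intervals treat these copies as independent, which they are not. The lean toward the ERCC6L2-/- list was thus present at both, and nothing is said here of a difference between them.

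The list-specific alpha-satellite peaks had lower scores than the shared ones, in both lists. The median score was 244.8 for shared and 119.4 for list-specific control peaks, and 302.6 and 235.3 in the ERCC6L2-/- list. At the ceiling were 16 of 39 shared and 2 of 14 list-specific control peaks, and 18 of 39 shared and 11 of 46 list-specific ERCC6L2-/- peaks. Median widths were 2006 and 1688.5 bases in the control and 1882 and 1552 bases in the ERCC6L2-/- list. Of the shared members outside alpha-satellite, 84 of 99 control peaks (84.8%) and 87 of 102 ERCC6L2-/- peaks (85.3%) were at the ceiling. Which of these peaks passed the peak caller in each replicate was not analysed here.

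The widest alpha-satellite peak of the control list on chromosome 13 was chr13:17546750-17549563, at the ceiling, with 8 CENP-B boxes, and it was shared with chr13:17546696-17549491. On chromosome 14 the widest ERCC6L2-/- peak was chr14:17496340-17500532, with 9 boxes, also shared. Of the 56 list-specific ERCC6L2-/- members, 11 in alpha-satellite and 5 outside it were tied at the ceiling. The widest of those on each chromosome were chr13:17302558-17304953 with 6 boxes, chr14:18044976-18047617 with 7, chr15:19563435-19564416 with 3, chr21:12430148-12431685 with 3 and chr22:14305622-14308743 with 8. All 5 of them were alpha-satellite peaks. Among control peaks, 2 list-specific members in alpha-satellite, chr13:17947415-17948449 and chr22:14299233-14299755 with 2 boxes each, and 8 outside it were at the ceiling.

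CENP-B boxes were found in nearly all alpha-satellite peaks of both lists, shared or not. A box lay in 50 of 53 control peaks (94.3%, 84.6 to 98.1%) and in 77 of 85 ERCC6L2-/- peaks (90.6%, 82.5 to 95.2%). All 14 control-specific peaks and 41 of 46 ERCC6L2-/- specific peaks (89.1%, 77.0 to 95.3%) held 1. On the other chromosomes the shares were 570 of 595 (95.8%) and 926 of 956 (96.9%). The median density in alpha-satellite members was 2.57 boxes per kb in the control and 2.49 in ERCC6L2-/-. Over their whole length, the longest contigs of the identical block described below held 2.37 and 2.43 per kb. Boxes at this density were thus not particular to the peaks. How often a stretch of equal width in the array holds a box was not computed. None of the 116 control and 112 ERCC6L2-/- members outside alpha-satellite had a match, which allows a share of up to 3.2% and 3.3% by the upper Wilson limit.

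The peaks without a box were few and lay in named places. In each list 3 shared ones, at chr15:17080537-17083548, chr21:5327309-5329881 and chr21:7257711-7261329 in the control, fell inside an alpha-satellite run but had only 25.5 to 28.1% identity at a distance of 171 bases. Their GC content was near 46%, above the alpha-satellite median of 38.8% in the control, and 26 to 34.8% of their bases lay in GGAAT pentamers, so they also met the criterion for the GGAAT satellite and were counted as alpha-satellite by position only. The other 5 were specific to ERCC6L2-/-. They were chr13:16251116-16251753, chr13:17000561-17001504, chr21:7323919-7325151, chr22:11369548-11369997 and chr22:11370446-11371506, with 46.0 to 82.4% identity at that distance.

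A block of centromeric sequence is present 4 times in hg38, letter for letter, on chromosomes 13, 14, 21 and 22. It consists of 13 contigs, runs of known bases between gaps, which total 2.05 Mb. The longest has 1134211 bases, the next 632586, and they held 2.37 and 2.43 boxes per kb. A sequenced fragment from this block matches all 4 copies equally well, and how the authors placed such reads is not given in the sources used here. A peak on 1 of the copies therefore cannot be assigned to that chromosome by its bases.

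On these 4 copies the control list had 46 peaks, 12 of them list-specific, and the ERCC6L2-/- list had 69 peaks, 35 of them list-specific. Laid on each other, the 115 peaks fell on 34 places. Control peaks occupied 21 places and ERCC6L2-/- peaks 31. Of the 34 places, 18 had a peak of both lists on at least 1 copy, 13 had ERCC6L2-/- peaks only and 3 had control peaks only. Each occupied place had 2.19 peaks on average in the control and 2.23 in ERCC6L2-/-, while the number of occupied places differed.

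**Figure D3:**
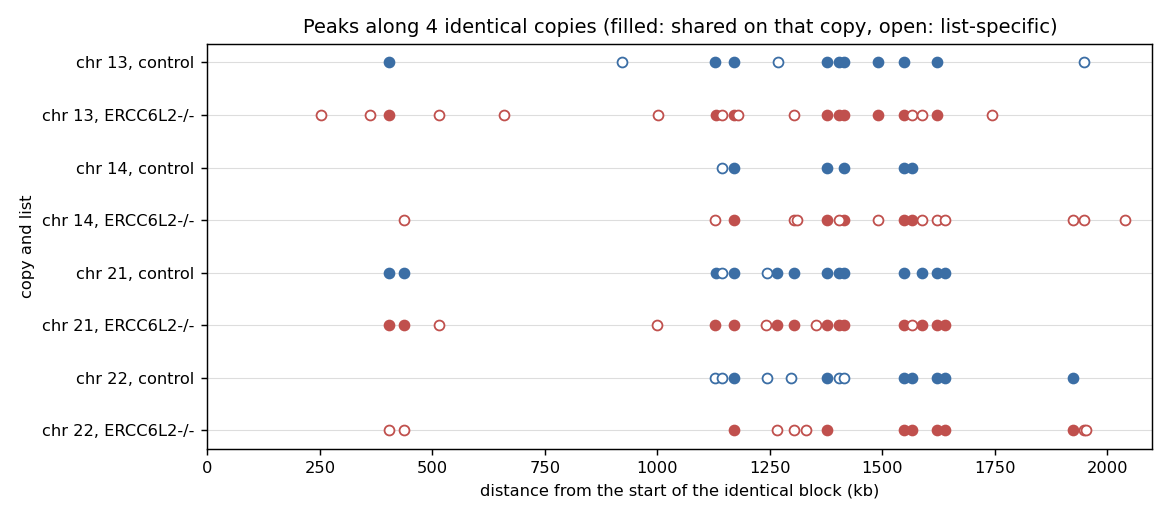
Peaks along the block that hg38 holds in 4 identical copies, by distance from its start in kb (x axis), with a row for each chromosome and list (y axis), control in blue and ERCC6L2-/- in red. Filled points are shared on that copy and open points are list-specific, and many open points stand above or below a peak of the other list on another copy, as for 20 of the 35 open ERCC6L2-/- points.

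Many list-specific peaks of this block had a partner in the other list at the same place of another copy. This held for 20 of the 35 ERCC6L2-/- specific peaks (57.1%, 40.9 to 72.0%) and for 8 of the 12 control-specific peaks (66.7%, 39.1 to 86.2%). A peak of the same list at the same place of another copy was present for 82.6% of the peaks in each list. Measured in bases, 67.4% of the control and 47.3% of the ERCC6L2-/- coverage was in both lists with the copies kept apart, and 82.1% of 41.0 kb and 59.1% of 57.0 kb once all copies were laid on 1.

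Places with peaks on all 4 copies in both lists were 3 in number, at chr13:17168839, chr13:17374065 and chr13:17546603 as counted on chromosome 13. At 17302544 the control list had a peak on chromosome 21 only, and the ERCC6L2-/- list on all 4 chromosomes. The opposite was seen at 17143228, with control peaks on chromosomes 14, 21 and 22 and an ERCC6L2-/- peak on chromosome 13 only, so all of these were list-specific although both lists held the place. At 17947398 the control peak was on chromosome 13 and the ERCC6L2-/- peaks were on chromosomes 14 and 22. The control had a peak on 1 copy at 8 places, on 2 at 5, on 3 at 4 and on all 4 at 4 places. The ERCC6L2-/- list had 12, 6, 7 and 6 such places.

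Peaks of near-identical sequence in the other list were common in alpha-satellite generally. A peak of the other list with at least 95% identity over at least 80% of the peak, anywhere in the genome, was found for all 14 control-specific alpha-satellite members and for 39 of the 46 ERCC6L2-/- specific ones (84.8%, 71.8 to 92.4%). On the other chromosomes the shares were 93.8% of 96 and 88.8% of 456. Outside alpha-satellite it was found for 5 of 17 control-specific and 3 of 10 ERCC6L2-/- specific members, against 3.0% and 12.1% of the list-specific peaks elsewhere outside alpha-satellite. In all, 12 control-specific and 14 ERCC6L2-/- specific members had no such partner. The partners were not all separate peaks. A control peak at 1009 to 14935 of GL000226v1, a contig not placed on a chromosome, was the best match of several ERCC6L2-/- specific alpha-satellite members. Among these were chr13:16360076-16361732 and chr22:14331534-14333270.

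Chromosome 15 was not part of the identical block, and its array is split by the CENP-B box. The 3 contigs from chr15:17083674-17498951 to chr15:17752001-18341758 held no match to the box, and chr15:18355109-18979846 and chr15:18979947-19725254 held 3.00 and 3.01 per kb. All 8 ERCC6L2-/- specific and both control-specific alpha-satellite peaks of this chromosome lay on the contigs with boxes. The control-specific ones were chr15:18910978-18911586 and chr15:19265966-19267752. Of the 8 ERCC6L2-/- specific peaks, 6 had a near-identical control peak, and for all 6 the best match was chr15:19265966-19267752, at 96.5 to 99.8% identity. The 2 without such a match were chr15:18701773-18704456 and chr15:19670880-19673109. The shared pair at chr15:19775926-19776614 and chr15:19778090-19780076 in the ERCC6L2-/- list lay beyond the array, in a separate short run of the repeat, and was at the ceiling in both lists.

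The peaks of the 4 annotated rDNA units lay almost wholly in the spacer between the ribosomal RNA genes and recurred at the same distances in different units. On chromosome 21 the annotation holds 4 genes for the 5.8S RNA (RNA5-8SN2 at chr21:8212572-8212724, 5_8S_rRNA at chr21:8256781-8256933, RNA5-8SN3 at chr21:8395607-8395759 and RNA5-8SN1 at chr21:8439823-8439975), each in 1 rDNA unit, and the starts of adjacent genes in a pair are 44.2 kb apart. The reference breaks off shortly after the 5_8S_rRNA gene. In RefSeq (GRCh38.p14) the precursor transcript spans at least -6.57 to 6.73 kb from the start of the 5.8S gene. There were 18 control and 24 ERCC6L2-/- peaks in these units, at the ceiling in 16 and 23 cases, and a tract of at least 30 purines or pyrimidines lay in 15 (83.3%, 60.8 to 94.2%) and 17 (70.8%, 50.8 to 85.1%) of them. Among all members outside alpha-satellite the tracts were in 38 of 116 (32.8%) and 37 of 112 (33.0%), which include the rDNA peaks. No alpha-satellite member held one, and the share over all consensus peaks was not computed. The rDNA peaks repeat a few places of similar units, so they are not independent and the intervals are too narrow. For words of 50 bases in these peaks, the median number of copies in hg38 was 5. How reads that match several units were placed is not given in the sources used here. Peaks in each unit and the placement of reads from a similar unit therefore cannot be told apart.

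Upstream of the transcribed part, peaks at about 8 to 10 kb before the 5.8S gene were present in all 4 units in both lists, for example chr21:8202816-8204649 in the control and chr21:8203271-8203877 in ERCC6L2-/-. Directly downstream, at 7 to 10 kb, 3 units had peaks in both lists. Further along the spacer, 3 units had peaks at 15 to 18 kb, with 7.13 kb covered in the control and 6.83 kb in ERCC6L2-/-, and the same 3 had peaks at 20 to 23 kb, with 7.0 and 6.33 kb. RNA5-8SN3 and RNA5-8SN1 also had peaks near 24 to 26 kb. The ERCC6L2-/- peaks were more often split: chr21:8411144-8413456 of the control corresponded to chr21:8410905-8412266 and chr21:8412599-8413187, and chr21:8415254-8417624 to chr21:8415256-8416341 and chr21:8417063-8417983. Total coverage in the units was 29.7 kb in the control and 28.2 kb in ERCC6L2-/-, so ERCC6L2-/- had more peaks and slightly fewer covered bases.

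**Figure D4:**
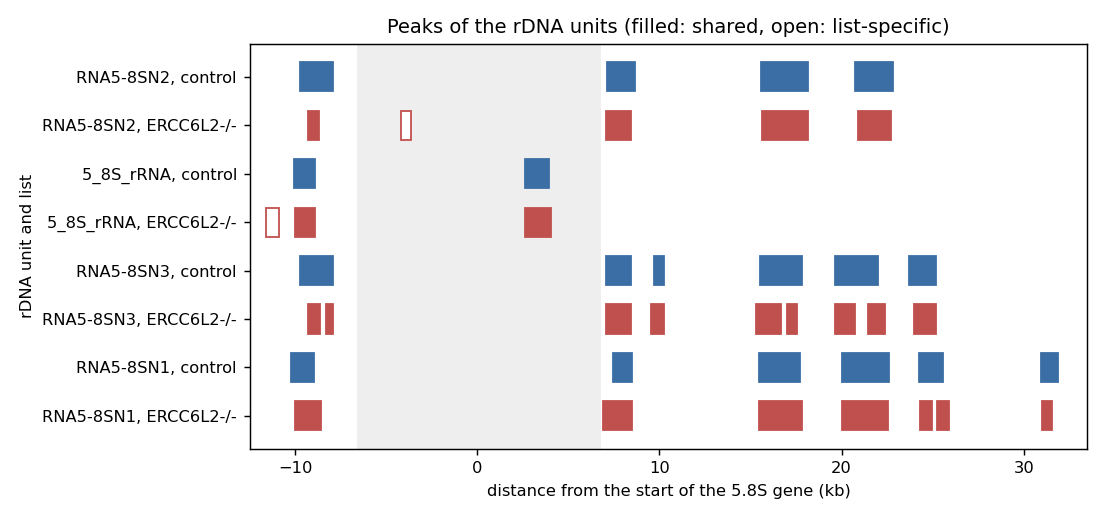
Peaks of the 4 rDNA units of chromosome 21 by distance from the start of the 5.8S gene in kb (x axis), with a row for each unit and list (y axis), control in blue and ERCC6L2-/- in red. Bars span the peaks, filled if shared and open if list-specific, and the grey area is the transcribed part from -6.57 to 6.73 kb, which held 1 control and 2 ERCC6L2-/- peaks.

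Inside the transcribed part of these units lay 1 control and 2 ERCC6L2-/- peaks. The shared one, chr21:8259407-8260723 in the control with a score of 139.3 and at the ceiling in ERCC6L2-/-, was 2.63 kb after the start of the 5_8S_rRNA gene. The other, chr21:8208373-8208947, was specific to ERCC6L2-/- and at the ceiling. It had a GC content of 81.0% and overlapped MIR3648-1, a microRNA gene in the 5' part of the precursor. Its sequence was 100.0% identical to the control peak chr21:8986965-8987435 over MIR3648-2, a place that both lists held. That place lies outside the annotated units and was not counted among the rDNA peaks. The second ERCC6L2-/- specific rDNA peak was chr21:8245188-8245875, with a score of 250.8, and had no near-identical control peak.

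The GGAAT satellite gave the widest peaks, and all of them were shared. There were 14 control peaks and 13 ERCC6L2-/- peaks, every one at the ceiling, with median widths of 4677 and 5692 bases. The widest control peak, chr21:10668735-10738234, spanned 69500 bases, and together with chr21:10651820-10668406 it covered the stretch that the ERCC6L2-/- list divided into chr21:10651826-10694878 and chr21:10695585-10738236, of 43053 and 42652 bases. The second block on chromosome 21 was chr21:7930566-7957895, of 27330 bases, against 27315 bases in ERCC6L2-/-. On chromosome 22 the peak chr22:16343434-16362351 was 18918 bases wide, and 18916 in ERCC6L2-/-. The median number of copies per word was 1 or 2 in each of these peaks, and 2 in the chromosome 22 peak, against 612 over the control alpha-satellite peaks. GGAAT runs made up 27 to 51.3% of each control peak.

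**Figure D5:**
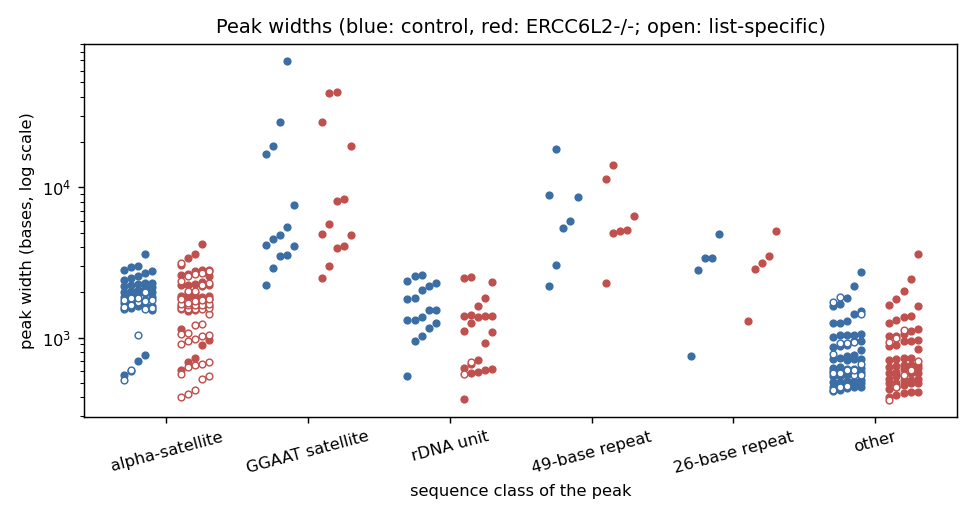
Width of each member peak in bases (y axis, log scale) by sequence class (x axis), control in blue and ERCC6L2-/- in red, with shared peaks filled and list-specific peaks open. GGAAT satellite peaks reached 69500 bases in the control and 43053 in ERCC6L2-/-, and alpha-satellite peaks did not exceed 3619 and 4193 bases.

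GGAAT peaks were also found in a pair of identical places. A contig that hg38 holds once on chromosome 14 and once on chromosome 22 had the control peaks chr14:16096745-16100864 and chr14:16101454-16104955 in the first copy and chr22:12977641-12981704 and chr22:12982016-12985553 in the second. In ERCC6L2-/- the copy on chromosome 14 had a pair of peaks at the same places, chr14:16096817-16100886 and chr14:16101088-16105028, and the copy on chromosome 22 had 1 merged peak, chr22:12977599-12985754. Here both copies were peaked in both lists.

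Next to the GGAAT satellite on chromosome 22 stood 7 peaks per list over the 49-base repeat, all shared, from chr22:16259495-16268336 to chr22:16363566-16381434 in the control. They covered 51.9 kb in the control and 49.3 kb in ERCC6L2-/-, with 89.2% and 93.9% of these bases in both lists. This class is named by its unit length only. The unit printed above also contains GGAAT, and a relation to the GGAAT satellite was not tested. The 26-base repeat, with a GC content of 65.9 to 67.7% in the control, had 5 shared peaks per list. On chromosome 15 its widest peak, chr15:20340405-20343809, was the widest of the chromosome in the control list, and chr15:20340324-20343805 was the widest in ERCC6L2-/-. On chromosome 22 the peaks were chr22:16558549-16561375 and chr22:16563063-16567967 in the control.

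The remaining 72 control and 63 ERCC6L2-/- members were mostly narrow, with median widths of 648.5 and 653 bases, and 55 in each list were shared. Several lay in duplicated segments that were peaked on both chromosomes. The control peaks chr14:16043657-16044535 and chr22:11263006-11264041 were 99.3% identical over 879 bases. On chromosomes 21 and 22, chr21:10395728-10396621 and chr22:11048488-11049534 were 98.6% identical, and chr21:10411917-10412671 and chr22:11064676-11065916 were 97% identical. All of these were shared, and the ERCC6L2-/- list held the same 3 pairs.

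List-specific members of this group also came in like pairs. The control-specific peaks chr14:18672965-18673441 and chr22:15594111-15594578 were 95.3% identical, and chr21:9313345-9314259 and chr22:15783495-15784077, both control-specific, were 90.6% identical. In each case both members of the pair were missing from the ERCC6L2-/- list. The ERCC6L2-/- specific peak chr22:11702287-11702849 was 100.0% identical to part of the control-specific peak chr21:8809797-8811230. Both were also like the peak at chr22:11814379, which the lists share, at 98.8% and 99.1% identity, so neither list lacked this sequence. The widest of 5 control-specific peaks at the ceiling on chromosome 21, chr21:9816247-9818105, in an exon of the pseudogene LINC01667, was 95.9% identical to the shared peak chr21:9821413-9824131 in the same gene.

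Few members were unique in sequence. At least 90% of the 50-base words occurred once in the reference in 14 of 169 control members (8.3%, 5.0 to 13.4%) and 11 of 197 ERCC6L2-/- members (5.6%, 3.1 to 9.7%). In 73 control members (43.2%) and 104 ERCC6L2-/- members (52.8%) no word occurred once. For alpha-satellite members the median number of copies per word was 612 in the control and 609 in ERCC6L2-/-. List-specific members with at least 90% single-copy words were chr21:10617191-10617795, with a score of 309.6, and chr15:20400280-20400942, in an intron of HERC2P3, in the control, and chr21:8991625-8992740, with a score of 96.6, in ERCC6L2-/-.

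Most of these peaks overlapped no annotated gene, and the share over all consensus peaks was not computed. Any annotated gene was overlapped by 35 of 169 control members (20.7%, 15.3 to 27.4%) and 32 of 197 ERCC6L2-/- members (16.2%, 11.7 to 22%), and all of these lay outside alpha-satellite. A single protein-coding gene was met, POTEH, a member of the POTE ankyrin domain family, by the shared control peak chr22:15713159-15713925 in an intron. Long non-coding RNAs were overlapped by 18 control and 19 ERCC6L2-/- members. Pseudogenes included RHPN2P1 on chromosome 15, where both lists held a shared peak in an intron, chr15:20231445-20231966 in the control. In introns of the same gene also lay chr15:20247377-20248295, the control-specific member of the chromosome at the ceiling, and chr15:20237195-20237665, specific to ERCC6L2-/- with a score of 204.9. No ribosomal RNA gene of the GENCODE annotation was overlapped by a member. Overlap with single ribosomal RNA genes of RefSeq was not tested. As described above, 1 control and 2 ERCC6L2-/- members lay inside the transcribed part of the annotated rDNA units.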

How the data were processed

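BrdU-labelled nascent DNA of 6 U2OS samples, 3 control and 3 ERCC6L2-/-, was immunoprecipitated with an E. coli BrdU DNA spike and sequenced. According to the methods and labels, reads were checked with FastQC, trimmed with Trim Galore, aligned to UCSC hg38 p12 with Bowtie2, stripped of duplicates with Picard, and peaks were called per sample with MACS2 and merged over 3 replicates with MSPC. Versions, thresholds and the placement of reads with several equal matches are not given in the sources used here. The authors deposited, for each merged peak, a −log10 p-value, which saturates above 310.6. The deposited lists of unique peaks, 3371 control and 1614 ERCC6L2-/-, equalled those recomputed with a 1-base overlap. Read depth is unknown, so no precision beyond counting error could be given.

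Members and lists were chosen with earlier results of these data known, and the sequence classes after the data were seen. Alpha-satellite was found as windows of 1000 bases, step 100, with at least 50% identity at the monomer length of 171 bases (the best of 150 to 200 in the longest contig) and at most 45% GC, joined over gaps of up to 10 kb into runs of at least 10 kb, and a peak belonged to it by its midpoint, before any other class. GGAAT satellite required 20% of the bases in tandem pentamers. The 49-base and 26-base repeats required 50% identity at that distance with at most 40% or at least 60% GC. An rDNA unit spanned -12 to 32.5 kb around a 5.8S gene. The core CENP-B box, with its variable positions free, was searched on both strands without mismatch. Words were 50 bases long and counted on both strands of the reference. Like pairs within a list had at least 90% identity over 50% of the shorter peak. Genes were from GENCODE 44. Named peaks were, per chromosome and list, the widest member and the list-specific member with the highest score, with ties at the ceiling broken by width. Other peaks are named as examples chosen after their values were seen. Shared peaks were also defined by reciprocal overlap or a gap, and thresholds, chromosomes, the box pattern and the scanned stretch were varied. Scripts were tested on simulated data and used python 3.11.15, pandas 2.3.3, numpy 2.4.6, scipy 1.17.1, pysam 0.24.0, blastn 2.17.0 and samtools 1.23.1. The sequence of 1 pair of duplicated peaks is not reported here.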

Additional observations from a re-analysis of the deposited data

How the results depend on the processing

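No paired analysis was possible because the deposited lists merge the 3 replicates of each genotype, and for the same reason no replicate could be left out. Of 58 alternative values, 44 moved by less than their counting interval and 14 by more. With a reciprocal overlap of 50%, the list-specific share was 27.8% in the control and 38.1% in ERCC6L2-/-, and alpha-satellite made up 69.3% of the ERCC6L2-/- specific members. Among peaks at the ceiling, the list-specific shares were 9.09% and 13.2%, alpha-satellite made up 20% and 68.8% of these, and 83.3% of the control alpha-satellite peaks held a CENP-B box. Within the central 300 bases, a box was found in 60.4% of control and 65.9% of ERCC6L2-/- alpha-satellite peaks. Without chromosome 21, 37.3% of ERCC6L2-/- members were list-specific. The next alternatives were chosen after seeing the data. With the 4 identical copies counted as 1 place, 21.4% of ERCC6L2-/- members were list-specific, and alpha-satellite made up 22.7% of the control-specific places. Among control peaks with at least 30% identity of their own at 171 bases, 100.0% held a box. The causes were not tested.

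The lists carry no read counts, so weak and absent signal cannot be told apart. A list-specific peak is one that the merged list of the other genotype does not hold at that position. The signal under it in the other genotype was not tested. In identical copies the position itself depends on how reads were placed.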
